A study of Mus musculus with 18 samples.

Results

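The comparison described here sets kidney cortex of mice given aristolochic acid I (AAI) for 3 weeks against kidney cortex of mice given DMSO, in 6 of the 18 RNA-sequencing libraries of the series (3 AAI libraries and 3 DMSO libraries), across all 24062 gene symbols of the deposited table. The libraries were chosen by their labels alone. All 6 come from C57Bl/6 mice labelled Klf6fl/fl (fl/fl), which carry floxed alleles of the zinc finger transcription factor gene Klf6 in both groups. The AAI kidneys were taken when the 3 weeks of toxin ended. DMSO is the vehicle, and no label gives the week of the DMSO kidneys, the dose, the age or the sex. Of the other libraries, 3 fl/fl libraries taken after 3 more weeks of remodeling (6 weeks in all) and 6 libraries labelled Klf6PTKO (PTKO, a knockout in the proximal tubule, given AAI for 3 weeks or DMSO) are used for tests of difference. The promoter that drives Cre is not given in the sources used here. Whether each library is its own animal is not labelled either, so p-values measure the spread between libraries, which may be technical.

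AAI is a plant nephrotoxin that enters the proximal tubule, the nephron segment that reabsorbs most filtered solutes, through organic anion transporters of the basolateral membrane, and it forms DNA adducts there. Downstream of it, the thick ascending limb, the distal convoluted tubule and the collecting duct set the salt, magnesium, calcium, acid and water content of the urine. Glomeruli with their podocytes, vessels and resident immune cells make up the rest of the cortex. Markers of these cortical cells were present in all 6 libraries. Nphs1, which encodes nephrin of the podocyte slit diaphragm, had 79.9, 62.3 and 55.6 CPM in AAI, against 40.5, 35.3 and 35.3 CPM in DMSO. Lrp2, which encodes the proximal tubule endocytic receptor megalin, had 518, 416 and 334 CPM in AAI, against 2503, 2832 and 2895 CPM in DMSO. Klf6 itself, which is floxed and not deleted in these mice, had 308, 273 and 256 CPM in AAI, against 39.7, 39.2 and 42.3 CPM in DMSO (log2 change 2.76, SE 0.18, adjusted p = 1.8e-09), and the groups did not overlap.

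Values are CPM as deposited, in which a gene's reads are set relative to all reads of its library. Changes are limma estimates of log2(CPM + 1), AAI minus DMSO, with Benjamini-Hochberg adjusted p over the 14604 genes that reached 1 CPM in at least 3 libraries, and "higher", "rose", "lower" and "fell" mark an adjusted p under 0.05. The scale understates the change of genes at a few CPM. A gene near 0 in DMSO reaches the filter only through other libraries. In lists of such genes the filter therefore favours higher calls. Of all genes tested, 8466 (58%) were higher and 2651 (18.2%) lower in AAI cortex, and the median gene had a log2 change of 0.447. The AAI and DMSO libraries did not overlap for 11783 of the 14604 genes (80.7%). A lack of overlap, where it is given for a gene below, was thus shared by most genes. The 10 genes with most reads took 7.15% to 8.37% of the reads in the AAI libraries and 11.1% to 12% in the DMSO libraries. The AAI libraries held 21325952 to 26792783 reads, and the DMSO libraries held 16516093 to 19683107 reads. Median-of-ratios scaling, which divides each library by the median ratio of its genes to their geometric mean, moved the median change to 0.0303 and gave 36.6% of genes higher and 34.2% lower. On both scalings together, 5349 genes were higher and 2651 lower, and 223 genes were called in opposite directions. Counts on both scalings are therefore given for nearly all gene lists, and a list's median, where given, stands beside its value relative to the median gene.

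**Figure D1:**
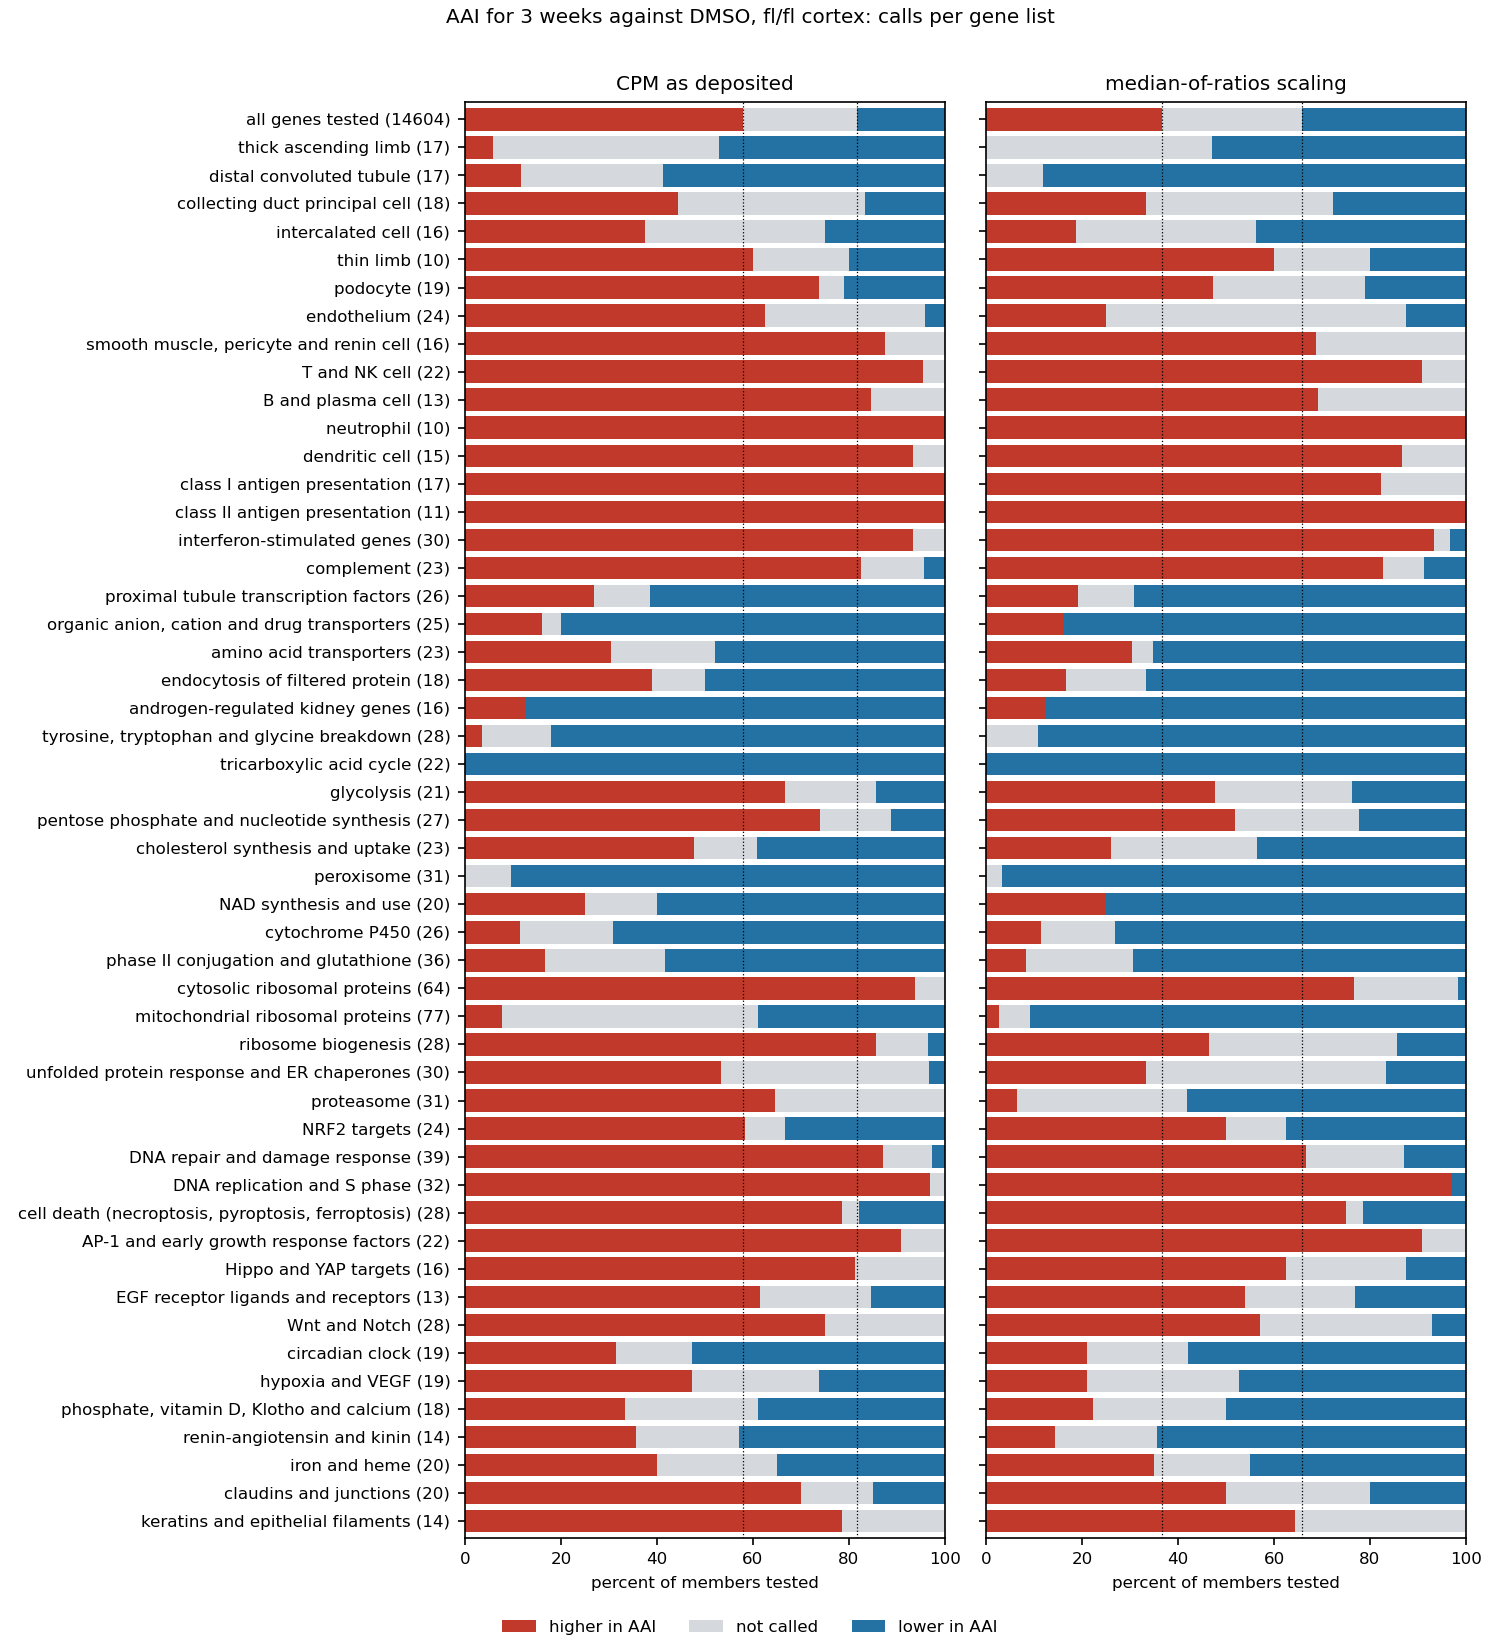
Percent of the tested members of each gene list that were higher in AAI (red), not called (grey) or lower in AAI (blue) in fl/fl cortex, with CPM as deposited on the left and with median-of-ratios scaling on the right. The top bar holds all 14604 genes tested, its limits are carried down as dotted lines, and the number tested is in brackets. In the citric acid cycle list 22 of 22 genes were lower on both scalings. The proteasome list holds 20 higher and 0 lower on the left and 2 higher and 18 lower on the right.

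The genes that lost most RNA are mostly known as genes of the proximal tubule. Kap, an androgen-regulated kidney gene with the largest fall in mean CPM, had 68.5, 436 and 180.2 CPM in AAI, against 27926, 31870.3 and 28349 CPM in DMSO (log2 change -7.38, SE 0.85, adjusted p = 8.7e-07). Acsm2, which encodes a mitochondrial enzyme that activates medium-chain fatty acids, had 1147, 689.7 and 565 CPM in AAI, against 8673, 9139 and 8094 CPM in DMSO. The groups were far apart for both. Gpx3, which encodes the glutathione peroxidase that the kidney secretes into plasma, had 32364, 22487 and 25217 CPM in AAI, against 38772, 37898 and 33886 CPM in DMSO and did not pass the test (adjusted p = 0.44), although its AAI libraries were all below its DMSO libraries. By edgeR on the recovered reads Gpx3 was lower (log2 change -0.95, adjusted p = 0.0034). Bulk RNA cannot tell fewer cells of a type from less RNA per cell, here and in all that follows.

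Most transcription factors of the proximal tubule fell, and some factors of developing or regenerating tubule rose. Of 26 tested members of this list, 16 were lower and 7 higher (18 lower and 5 higher with median-of-ratios scaling), with a median log2 change of -0.70 (-1.15 relative to the median gene). Hnf4a, which encodes a nuclear receptor that maintains the differentiated proximal tubule cell, had 509, 373 and 272 CPM in AAI, against 1199, 1256 and 1216 CPM in DMSO (log2 change -1.71, SE 0.19, adjusted p = 6.8e-07). Ppara, the nuclear receptor of fatty acid oxidation, had 117, 58.9 and 55.8 CPM in AAI, against 268, 280.3 and 306 CPM in DMSO (log2 change -1.95, SE 0.28, adjusted p = 9.2e-06). Both stood well below their DMSO libraries in every AAI library. Sox9, a factor of tubule progenitors and repair, had 31.5, 34.4 and 35.9 CPM in AAI, against 1.57, 0.762 and 0.793 CPM in DMSO (log2 change 4.12, SE 0.23, adjusted p = 5.8e-10). Sox4 had 74.2, 89.3 and 78.4 CPM in AAI, against 7.21, 7.57 and 12.3 CPM in DMSO (log2 change 3.06, adjusted p = 1.4e-08). The AAI libraries of both were close together and far above the DMSO libraries.

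Transporters of organic anions, cations and drugs fell almost as a class. Of 25 tested members, 20 were lower and 4 higher (21 lower and 4 higher with median-of-ratios scaling), with a median log2 change of -2.37 (-2.82 relative to the median gene). The steepest fall was in Slco1a1, which encodes an organic anion transporter of the apical membrane, with 0.933, 1.08 and 0.567 CPM in AAI, against 738, 864 and 631 CPM in DMSO (log2 change -8.65, SE 0.89, adjusted p = 2.7e-07). Slc22a6 (chromosome 19, 8618039 to 8628299, plus strand, mm10), which encodes the basolateral transporter OAT1 that carries AAI into the cell, had 71.03, 33.3 and 32.98 CPM in AAI, against 1660.4, 1705 and 1690.3 CPM in DMSO (log2 change -5.27, SE 0.56, adjusted p = 3.5e-07). Its DMSO libraries lay in a narrow band, and every AAI library was far below them. The neighbouring Slc22a8, which encodes OAT3, had 75.7, 62.9 and 35.2 CPM in AAI, against 795, 774 and 961 CPM in DMSO (log2 change -3.90, SE 0.32, adjusted p = 2.4e-08). Slc22a2 (OCT2), which takes up organic cations, had 47.2, 43.2 and 29.5 CPM in AAI, against 428, 451 and 454 CPM in DMSO (log2 change -3.47, adjusted p = 3.2e-06). The 4 members that rose all encode ATP-driven exporters, but other exporters of this kind in the list did not rise. Abcc2 and Abcg2 fell (log2 changes -1.76 and -1.28), and Abcb1a was not called on CPM. Abcc3 had 22.7, 37.1 and 31.5 CPM in AAI, against 2.36, 1.63 and 3.70 CPM in DMSO (log2 change 3.16, SE 0.27, adjusted p = 4e-08). Abcc1, Abcc4 and Abcb1b had log2 changes of 1.55, 1.15 and 1.18 (adjusted p = 3.5e-07, 5.9e-07 and 4.9e-06).

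Amino acid transporters moved in both directions. In this list 7 of 23 tested members were higher and 11 lower (7 higher and 15 lower with median-of-ratios scaling), with a median log2 change of -0.39 (-0.84 relative to the median gene). The brush-border gene Slc3a1, whose product is part of the cystine transporter, had 200.2, 182 and 153 CPM in AAI, against 732, 724 and 765 CPM in DMSO (log2 change -2.06, SE 0.21, adjusted p = 2.6e-07). Slc6a19, the apical carrier of neutral amino acids, had 149, 87.7 and 67.3 CPM in AAI, against 465, 486 and 387 CPM in DMSO (log2 change -2.20, adjusted p = 2.9e-06). Slc7a13, a carrier of the straight proximal tubule, had 1.90, 23.1 and 6.98 CPM in AAI, against 1166, 1271 and 1328 CPM in DMSO (log2 change -7.25, adjusted p = 4.8e-07). In the other direction, Slc7a5, which encodes the large neutral amino acid carrier LAT1 of growing cells, had 32.1, 34.2 and 39.3 CPM in AAI, against 2.91, 2.74 and 3.01 CPM in DMSO (log2 change 3.22, SE 0.16, adjusted p = 1.6e-10). Slc7a1, a carrier of cationic amino acids, had 60.3, 65.7 and 62.2 CPM in AAI, against 9.63, 10.3 and 11.9 CPM in DMSO (log2 change 2.46, adjusted p = 1.3e-09). No AAI library of these 5 genes overlapped a DMSO library, as was so for 80.7% of all genes tested.

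Receptors for filtered protein fell, while other parts of the endocytic route did not move as a group. In the endocytosis list 7 of 18 tested members were higher and 9 lower (3 higher and 12 lower with median-of-ratios scaling). Lrp2 (megalin), whose values are given above, had a log2 change of -2.71 (adjusted p = 3.6e-07). Cubn, which encodes its partner cubilin, had 164, 151 and 108 CPM in AAI, against 669, 701 and 766 CPM in DMSO (log2 change -2.35, SE 0.26, adjusted p = 6.5e-07). Folr1, the folate receptor, had 208, 159 and 157 CPM in AAI, against 548, 548 and 521 CPM in DMSO (log2 change -1.63, adjusted p = 2e-07). Gipc1, an adaptor that binds megalin, was higher, with 100.3, 103 and 114 CPM in AAI, against 44.7, 44.8 and 47.9 CPM in DMSO (log2 change 1.19, adjusted p = 2.7e-07).

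Genes known to depend on androgen in the mouse kidney fell in nearly every case. In that list 2 of 16 tested members were higher and 14 lower (2 higher and 14 lower with median-of-ratios scaling), and the summed level of its members was 1226 to 1866 CPM in the AAI libraries, against 40624 to 46242 CPM in the DMSO libraries. Odc1, which encodes the first enzyme of polyamine synthesis, had 126, 109 and 97.97 CPM in AAI, against 474, 420.5 and 383 CPM in DMSO (log2 change -1.93, SE 0.18, adjusted p = 8.1e-08). Of the pair that rose, one was Aoc1, a diamine oxidase that breaks polyamines down, with 110.4, 148 and 144 CPM in AAI, against 3.09, 3.51 and 4.76 CPM in DMSO (log2 change 4.82, SE 0.31, adjusted p = 2e-09). The other was Gusb, a lysosomal glucuronidase, with 143, 190.4 and 205 CPM in AAI, against 63.9, 83.3 and 63.9 CPM in DMSO (log2 change 1.33, adjusted p = 2e-05). The labels do not give the sex of the mice.

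Genes of the thick ascending limb and the distal convoluted tubule, which lie downstream of the segment that takes up AAI, were lower in many cases. In the thick ascending limb list 1 of 17 tested members were higher and 8 lower (0 higher and 9 lower with median-of-ratios scaling), with a median log2 change of -0.53 (-0.97 relative to the median gene). Egf (chromosome 3, 129677565 to 129755316, minus strand, mm10), the growth factor made by these cells and the convoluted tubule, had 41.9, 183 and 56.4 CPM in AAI, against 1956, 1970.5 and 2366 CPM in DMSO (log2 change -4.77, SE 0.46, adjusted p = 1.4e-07). Umod, which encodes the urinary protein uromodulin, had 1468, 2751 and 1713 CPM in AAI, against 3257, 3578 and 5991 CPM in DMSO (log2 change -1.11, SE 0.37, adjusted p = 0.013), and the salt transporter gene Slc12a1 (NKCC2) had 141, 458 and 207 CPM in AAI, against 606, 775 and 1097 CPM in DMSO (log2 change -1.75, SE 0.51, adjusted p = 0.0052). Every AAI library was below every DMSO library for the 3 genes, with AAI replicate 2 the highest of its group and DMSO replicate 3 the highest of its own in each. The Umod call was lost without AAI replicate 1 (log2 change -0.92, adjusted p = 0.058 by limma) and without DMSO replicate 3 (log2 change -0.84, adjusted p = 0.072). Claudin genes of this list differed. Cldn10, which the proximal tubule also uses, had a log2 change of -1.94 (adjusted p = 7.8e-07). Cldn16 had 10.04, 19.3 and 14.7 CPM in AAI, against 9.63, 11.9 and 12.8 CPM in DMSO (adjusted p = 0.31). Cldn19 had 34.3, 59.7 and 50.95 CPM in AAI, against 22.5, 21.3 and 31.02 CPM in DMSO (log2 change 0.91, adjusted p = 0.026), a rise not called with median-of-ratios scaling (log2 change 0.46, adjusted p = 0.24) or without AAI replicate 2 or 3 or DMSO replicate 1 or 2 (log2 changes 0.74, 0.85, 0.85 and 0.81, adjusted p = 0.10, 0.070, 0.070 and 0.081). Slc14a2, a urea transporter gene of the medulla, had 4.67, 21.1 and 10.5 CPM in AAI, against 0, 26.9 and 20.5 CPM in DMSO (adjusted p = 0.75), and the part of medulla in each piece of cortex was not tested.

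In the distal convoluted tubule list 2 of 17 tested members were higher and 10 lower (0 higher and 15 lower with median-of-ratios scaling), with a median log2 change of -0.42 (-0.86 relative to the median gene). The shares of all genes lower were 18.2% and 34.2% on these scales. Trpm6, a defining member, was not called on CPM (log2 change 0.12), nor were Wnk4, Kcnj10, Calb1 and Slc8a1. Pvalb, which encodes the calcium-binding protein parvalbumin of the first part of this segment, had 0.299, 1.64 and 0.48 CPM in AAI, against 19.6, 17.7 and 18.5 CPM in DMSO (log2 change -3.51, SE 0.46, adjusted p = 3.8e-06). Slc12a3, the thiazide-sensitive salt transporter, had 665, 533 and 520.0 CPM in AAI, against 882, 848 and 996 CPM in DMSO (log2 change -0.67, SE 0.19, adjusted p = 0.0038). Klhl3, which encodes a ubiquitin ligase adaptor that restrains that transporter, had 9.44, 11.02 and 7.42 CPM in AAI, against 24.1, 22.6 and 29.01 CPM in DMSO (log2 change -1.36, adjusted p = 2e-05). The groups did not overlap for any of the 3, but parvalbumin RNA was nearly absent from the AAI libraries and Slc12a3 RNA was not. With quantile normalization the Slc12a3 fall was not called (log2 change -0.29, adjusted p = 0.21), nor was that of Umod (log2 change -0.69, adjusted p = 0.091).

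Collecting duct genes were split. In the principal cell list 8 of 18 tested members were higher and 3 lower (6 higher and 5 lower with median-of-ratios scaling). Aqp2, the water channel that vasopressin controls, had 89.7, 157 and 129 CPM in AAI, against 64.7, 107 and 124 CPM in DMSO, and its groups overlapped (adjusted p = 0.42; 95% interval of the log2 change -0.48 to 1.20). Aqp3, the basolateral water channel of the same cells, had 42.6, 53.97 and 43.9 CPM in AAI, against 104, 122 and 120.4 CPM in DMSO (log2 change -1.29, SE 0.30, adjusted p = 0.00088). Scnn1b, a subunit of the epithelial sodium channel, had 128, 113 and 122 CPM in AAI, against 64.3, 66 and 67.6 CPM in DMSO (log2 change 0.87, adjusted p = 0.00017). Gata3, a transcription factor of the duct, had 33.1, 32.4 and 32.2 CPM in AAI, against 15.1, 14.6 and 15.6 CPM in DMSO (log2 change 1.06, adjusted p = 1.3e-06). Of these genes of 1 cell type, Aqp3 thus fell and Scnn1b rose.

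Intercalated cell genes moved in both directions. In the intercalated cell list 6 of 16 tested members were higher and 4 lower (3 higher and 7 lower with median-of-ratios scaling), and the list's median changed sign with the scaling. Slc4a1, the anion exchanger of acid-secreting cells, had 13.3, 24.1 and 15.05 CPM in AAI, against 47.3, 47.96 and 54.7 CPM in DMSO (log2 change -1.51, SE 0.22, adjusted p = 1.5e-05). Slc26a4 (pendrin), the exchanger of base-secreting cells, had 65.2, 52.3 and 43.1 CPM in AAI, against 103, 80.3 and 89.9 CPM in DMSO (log2 change -0.77, SE 0.22, adjusted p = 0.0043). Atp6v0d2, a subunit of the proton pump, had 90.99, 133 and 124 CPM in AAI, against 60.2, 51.4 and 51.9 CPM in DMSO (log2 change 1.06, SE 0.17, adjusted p = 2.3e-05). The groups did not overlap for any of these 3 genes. Atp6v1g3, another subunit, had 63.4, 69.3 and 46.2 CPM in AAI, against 53.7, 47.4 and 48.2 CPM in DMSO and did not pass (adjusted p = 0.2), but was higher without AAI replicate 3 (log2 change 0.41, adjusted p = 0.034). In the thin limb list 6 of 10 tested members were higher and 2 lower (6 higher and 2 lower with median-of-ratios scaling). Of all genes, 58% and 36.6% were higher on these scales. Among its defining members Aqp1 fell (log2 change -2.24) and Slc14a2 was not called, so the list did not move as 1 group.

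Podocyte genes moved in both directions. In the podocyte list 14 of 19 tested members were higher and 4 lower (9 higher and 4 lower with median-of-ratios scaling), with a median log2 change of 0.78 (0.33 relative to the median gene). Of all genes, 58% were higher, and 36.6% with that scaling. Nphs1, whose values are given above, had a log2 change of 0.80 (adjusted p = 2.1e-05). Wt1, a transcription factor that podocytes need, had 31.7, 32.1 and 27.6 CPM in AAI, against 14.1, 10.7 and 15.7 CPM in DMSO (log2 change 1.13, SE 0.17, adjusted p = 1.8e-05). Synpo, which encodes the actin-binding protein synaptopodin, had 227, 237 and 249 CPM in AAI, against 90.6, 78.3 and 79.3 CPM in DMSO (log2 change 1.51, SE 0.098, adjusted p = 2e-09). The 4 members that fell were Magi2, Clic5, Col4a3 and Col4a4, of which Col4a3 and Col4a4 encode collagen chains of the glomerular basement membrane. Col4a3 had 208, 196 and 160.0 CPM in AAI, against 275, 277 and 331 CPM in DMSO (log2 change -0.65, adjusted p = 0.0014). Col4a4 had 169, 161 and 138 CPM in AAI, against 257, 249.6 and 301 CPM in DMSO (log2 change -0.79, adjusted p = 0.00027). All AAI libraries were below the DMSO libraries for this pair, and both collagen genes are also used by tubules. Magi2 was not called without AAI replicate 3 or DMSO replicate 2 or 3 (log2 changes -0.24, -0.24 and -0.29, adjusted p = 0.12, 0.12 and 0.074).

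Vessel genes did not move as 1 group. In the endothelial list 15 of 24 tested members were higher and 1 lower (6 higher and 3 lower with median-of-ratios scaling), against 58% and 36.6% of all genes higher on these scales. The 1 endothelial gene that fell was Kdr, which encodes the main VEGF receptor of capillaries, with 75.7, 87.1 and 66.5 CPM in AAI, against 144, 130.1 and 117 CPM in DMSO (log2 change -0.76, SE 0.19, adjusted p = 0.0017). Pecam1, an adhesion gene of all endothelium, had 119, 132 and 113 CPM in AAI, against 89.9, 78.95 and 76.6 CPM in DMSO (log2 change 0.56, adjusted p = 0.002). That rise was not called with median-of-ratios scaling (log2 change 0.1, adjusted p = 0.58). Emcn, a gene of capillaries and veins, had 95.03, 131 and 104 CPM in AAI, against 98.8, 95.2 and 82.6 CPM in DMSO (adjusted p = 0.21). Vwf, the clotting factor of larger vessels, had 7.13, 16.3 and 15.3 CPM in AAI, against 2.48, 1.22 and 2.43 CPM in DMSO (log2 change 2.14, SE 0.35, adjusted p = 3.5e-05). Vegfa, the tubule and podocyte ligand of KDR, had 174, 151 and 140.1 CPM in AAI, against 215, 193 and 239 CPM in DMSO (log2 change -0.47, adjusted p = 0.027). The Vegfa groups did not overlap, but its call was lost without AAI replicate 2 or 3 or DMSO replicate 1 or 3 (log2 changes -0.46, -0.40, -0.47 and -0.40, adjusted p = 0.063, 0.093, 0.056 and 0.095).

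Contractile genes rose together. In the list of smooth muscle, pericyte and renin cells 14 of 16 tested members were higher and 0 lower (11 higher and 0 lower with median-of-ratios scaling). Acta2, which encodes smooth muscle actin, had 267, 216 and 257 CPM in AAI, against 43.4, 37.8 and 24.9 CPM in DMSO (log2 change 2.80, SE 0.24, adjusted p = 4.4e-08). Notch3, the Notch receptor of pericytes and smooth muscle, had 70.1, 80.4 and 93.96 CPM in AAI, against 21.1, 17.7 and 15.4 CPM in DMSO (log2 change 2.12, SE 0.15, adjusted p = 5e-09). Myh11, which marks mature smooth muscle, had 41.7, 35.03 and 34.6 CPM in AAI, against 29.7, 27.8 and 20.98 CPM in DMSO and did not pass (adjusted p = 0.22). Ren1, the renin gene, was listed at 0 in all 6 libraries. In the lymphatic list 3 of 6 tested members were higher and 2 lower (3 higher and 2 lower with median-of-ratios scaling). Lyve1, which macrophages can also express, had 7.69, 8.53 and 5.02 CPM in AAI, against 0.242, 0.102 and 0.0528 CPM in DMSO (log2 change 2.81, adjusted p = 3.6e-07). The lymphatic transcription factor Prox1 had 1.46, 1.78 and 1.05 CPM in AAI, against 3.39, 2.85 and 5.60 CPM in DMSO (log2 change -0.998, adjusted p = 0.028). That call was lost without AAI replicate 1 or 3 or DMSO replicate 3 (log2 changes -1.01, -0.88 and -0.77, adjusted p = 0.052, 0.087 and 0.12).

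**Figure D2:**
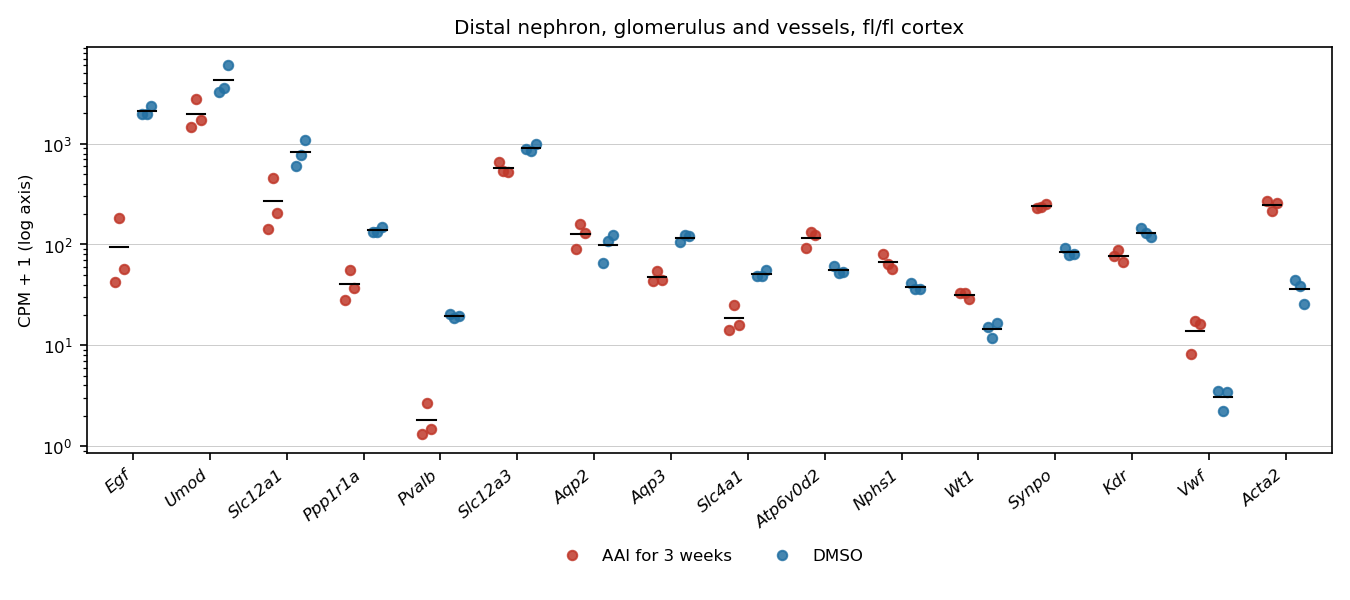
CPM + 1 (log axis) of 16 genes of the distal nephron, glomerulus and vessels in each of the 3 AAI libraries (red, left of each pair) and the 3 DMSO libraries (blue, right) of fl/fl cortex, with the mean of each group as a bar. Egf and Pvalb are far lower in AAI, Aqp2 overlaps, and Nphs1, Wt1, Synpo, Vwf and Acta2 are higher in every AAI library.

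T and NK cell genes were higher, besides those of macrophages. In the T and NK cell list 21 of 22 tested members were higher and 0 lower (20 higher and 0 lower with median-of-ratios scaling), and the summed level of its members was 238 to 445 CPM in the AAI libraries, against 9.63 to 15.2 CPM in the DMSO libraries. Members near 0 in DMSO passed the filter through other libraries, so the count of higher calls was partly set by the filter. Cd4, the coreceptor of helper T cells, had 24.04, 25.9 and 41.05 CPM in AAI, against 0.424, 0.914 and 1.06 CPM in DMSO (log2 change 4.10, SE 0.42, adjusted p = 2.3e-07), but macrophages and dendritic cells can also express it. Cd3e, a chain of the T cell receptor complex, had 9.89, 9.75 and 19.2 CPM in AAI, against 0.303, 0.203 and 0.74 CPM in DMSO (log2 change 3.25, SE 0.40, adjusted p = 2.1e-06). Cd8a, of cytotoxic T cells and some dendritic cells, had 9.37, 7.60 and 16.8 CPM in AAI, against 0.969, 0.711 and 1.11 CPM in DMSO (log2 change 2.60, adjusted p = 2.2e-05). All AAI libraries lay above all DMSO libraries, and replicate 3 was the highest of the AAI group for each of the 3. Foxp3, the factor of regulatory T cells, named here after its values were seen, had 11.6, 16.04 and 23.6 CPM in AAI, against 0, 0.102 and 0 CPM in DMSO.

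B and plasma cell, neutrophil and dendritic cell genes were higher too. Of the B and plasma cell list, 11 of 13 tested members were higher and 0 lower (9 higher and 0 lower with median-of-ratios scaling). Igj, which encodes the J chain of secreted antibodies, had 190.1, 837 and 667 CPM in AAI, against 106, 53.6 and 156 CPM in DMSO (log2 change 2.29, SE 0.42, adjusted p = 0.00012), with AAI replicate 1 nearest to the DMSO libraries. Irf4, a factor of plasma cells that activated T cells also use, had 24.5, 27.6 and 33.7 CPM in AAI, against 1.09, 0.813 and 2.75 CPM in DMSO (log2 change 3.60, adjusted p = 9.7e-09). In the neutrophil list 10 of 10 tested members were higher and 0 lower (10 higher and 0 lower with median-of-ratios scaling). The summed level of the whole list was 74.7 to 107 CPM in AAI, against 2.60 to 6.13 CPM in DMSO. Its members near 0 in DMSO passed the filter through other libraries, so this count was partly set by the filter. S100a8, which encodes a subunit of the neutrophil protein calprotectin, had 2.20, 11.1 and 1.96 CPM in AAI, against 0, 0.152 and 0.476 CPM in DMSO (log2 change 2.02, SE 0.41, adjusted p = 0.00028), with AAI replicate 2 above the other two. In the dendritic cell list 14 of 15 tested members were higher and 0 lower (13 higher and 0 lower with median-of-ratios scaling). Ccl22, a chemokine of activated dendritic cells, had 56.1, 31.8 and 93.7 CPM in AAI, against 0.484, 0.711 and 0.528 CPM in DMSO (log2 change 5.16, SE 0.56, adjusted p = 4.8e-07). Xcr1, a receptor of the cross-presenting kind, had 5.93, 5.02 and 10.6 CPM in AAI, against 0.605, 0.508 and 1.37 CPM in DMSO (log2 change 2.13, adjusted p = 0.00072). Mast cell and eosinophil genes were mostly too low to be tested, with 3 of 10 members passing the filter, all 3 of them higher. That list summed to 0.581 to 1.32 CPM in DMSO, so the same limit of the filter holds. Of the adipocyte list 5 of 12 members passed, of which 2 were lower and 0 higher. The lower ones were Pck1 and Car3 (log2 changes -3.37 and -3.23), and the other 3 were not called. The defining members Adipoq and Plin1 were near 0 in all 6 libraries and not tested, so these counts do not show a fall of adipocyte genes. Of the erythroid list 1 of 8 passed, Slc4a1, which intercalated cells share. The globin genes Hba-a1 and Hbb-bs were listed at 0 in all 6 libraries.

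Antigen presentation rose by both routes. In the class I list 17 of 17 tested members were higher and 0 lower (14 higher and 0 lower with median-of-ratios scaling), with a median log2 change of 2.57 (2.12 relative to the median gene). Tap1, which loads peptides into the endoplasmic reticulum, had 108, 101 and 148 CPM in AAI, against 7.45, 8.64 and 9.51 CPM in DMSO (log2 change 3.64, SE 0.33, adjusted p = 6.7e-08). Psmb8, a catalytic subunit of the immunoproteasome, had 114, 99.5 and 153 CPM in AAI, against 7.63, 6.50 and 5.55 CPM in DMSO (log2 change 4.01, SE 0.34, adjusted p = 3.1e-08). In the class II list 11 of 11 tested members were higher and 0 lower (11 higher and 0 lower with median-of-ratios scaling), with a median log2 change of 4.29 (3.85 relative to the median gene). H2-Aa, a chain of the class II molecule, had 1548, 1312 and 2686 CPM in AAI, against 73.1, 77.9 and 123 CPM in DMSO (log2 change 4.29, SE 0.39, adjusted p = 6e-08). Ciita, the coactivator that switches class II genes on, had 76.8, 59.2 and 122 CPM in AAI, against 5.81, 4.88 and 7.66 CPM in DMSO (log2 change 3.57, SE 0.38, adjusted p = 4.2e-07). The groups were far apart for all 4 genes. Class II genes are known from dendritic cells, macrophages and B cells, and injured tubule cells can also express them, so the cell of origin cannot be read from these libraries.

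Interferon-stimulated genes rose in 28 of 30 cases (28 higher and 1 lower with median-of-ratios scaling), with a median log2 change of 2.50 (2.06 relative to the median gene). These genes are switched on when interferons activate factors such as the IRF family, which bind an element with the core GAAA-NN-GAAA. Irf7, which encodes a factor that amplifies the response, had 72.6, 72.8 and 70.6 CPM in AAI, against 7.45, 8.18 and 8.72 CPM in DMSO (log2 change 3.003, SE 0.29, adjusted p = 1.4e-07). Isg15, a ubiquitin-like modifier, had 13.2, 13.4 and 12.7 CPM in AAI, against 1.09, 1.22 and 1.11 CPM in DMSO (log2 change 2.72, SE 0.30, adjusted p = 6.6e-07). Ifit3, which takes part in the block of viral RNA translation, had 56.1, 65.98 and 57.5 CPM in AAI, against 6.72, 8.79 and 9.30 CPM in DMSO (log2 change 2.72, SE 0.19, adjusted p = 5.3e-09). The AAI values of these 3 genes were close together, and none came near a DMSO value. The list members that were not higher were Ifi44 and Rsad2, an antiviral enzyme gene named here after its values were seen, which had 27.1, 25.9 and 23.5 CPM in AAI, against 30.9, 25.8 and 29.8 CPM in DMSO (log2 change -0.17, adjusted p = 0.49). With median-of-ratios scaling Rsad2 was lower (log2 change -0.62, adjusted p = 0.022).

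The upstream windows of 4 genes that rose and of Rsad2 are shown because they hold the same core and differ in their change. GAAA-NN-GAAA on either strand was found in 15 of the 21 list members that have a promoter in RefSeq (71.4%), against 419 of 10967 promoters of tested genes (3.82%), a promoter being 250 bases before to 50 bases after the start in RefSeq on GRCm38.p6. Capitals mark each match, and on the other strand the core reads TTTC-NN-TTTC. Isg15 holds 3 overlapping copies beginning 78 to 66 bases before the start, Ifit1, Ifit3 and Bst2 hold 2 each, and Rsad2 holds 1 that begins 120 bases before it. A match is a description of the letters and not a binding site.
Isg15 (chr4:156200819-156200908, minus strand): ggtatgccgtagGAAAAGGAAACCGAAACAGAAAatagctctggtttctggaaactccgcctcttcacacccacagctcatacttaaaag
Ifit1 (chr19:34640773-34640862, plus strand): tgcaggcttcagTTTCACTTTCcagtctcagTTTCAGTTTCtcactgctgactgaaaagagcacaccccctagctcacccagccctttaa
Ifit3 (chr19:34583361-34583450, plus strand): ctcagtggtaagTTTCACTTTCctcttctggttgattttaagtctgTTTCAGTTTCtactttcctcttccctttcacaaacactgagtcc
Bst2 (chr8:71537525-71537614, minus strand): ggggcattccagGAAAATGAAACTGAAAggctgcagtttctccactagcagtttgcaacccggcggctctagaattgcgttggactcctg
Rsad2 (chr12:26456495-26456584, minus strand): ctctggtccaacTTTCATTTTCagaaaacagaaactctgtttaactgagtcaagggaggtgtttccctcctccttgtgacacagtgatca
Ifit1, which binds viral RNA ends, had 22.9, 20.5 and 19.4 CPM in AAI, against 3.57, 3.96 and 3.49 CPM in DMSO (log2 change 2.23, adjusted p = 2.7e-06). Bst2 (tetherin), which holds budding virus at the membrane, had 70.8, 75.8 and 89.3 CPM in AAI, against 9.51, 6.96 and 8.88 CPM in DMSO (log2 change 3.08, adjusted p = 7.7e-08).

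Class II promoters carry an upstream CCAAT box as part of a shared module, and its reverse complement ATTGG was found beside the start of both genes shown, 48 bases before it in H2-Aa and 61 bases before it in H2-DMb1. CCAAT on either strand was found in 7 of 8 promoters of the class II list (87.5%), against 4623 of 10967 promoters of tested genes (42.2%). That share was not particular to class II. It was 14 of 15 (93.3%) in the cholesterol list and 23 of 27 (85.2%) in the unfolded protein response list. Other lists had less, such as 3 of 16 (18.8%) in the complement list.
H2-Aa (chr17:34287824-34287913, minus strand): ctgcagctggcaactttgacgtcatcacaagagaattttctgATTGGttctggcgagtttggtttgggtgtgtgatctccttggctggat
H2-DMb1 (chr17:34153101-34153190, plus strand): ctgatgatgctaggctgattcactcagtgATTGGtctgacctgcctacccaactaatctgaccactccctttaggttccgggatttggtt
H2-DMb1, a chain of the molecule that helps load class II, had 172, 134 and 232 CPM in AAI, against 13.2, 15.1 and 15.5 CPM in DMSO (log2 change 3.50, adjusted p = 9.5e-09).

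Most tested genes of the complement list rose. Cfd, Cd55 and Cd59a were not called on CPM. C9 did not reach the filter, with 0.0436 to 0.485 CPM in AAI and 0.687 to 1.94 CPM in DMSO. The list also holds receptor genes, such as C3ar1, C5ar1, Itgam and Itgax, which are not steps of the cascade itself. In this list 19 of 23 tested members were higher and 1 lower (19 higher and 2 lower with median-of-ratios scaling), with a median log2 change of 3.09 (2.65 relative to the median gene). C3 (chromosome 17, 57203970 to 57228136, minus strand, mm10), the protein on which all routes meet, had 2913, 2859 and 2805 CPM in AAI, against 34.1, 17.6 and 23.1 CPM in DMSO (log2 change 6.83, SE 0.25, adjusted p = 1.7e-11), the largest rise of the list. Cfp, which encodes properdin of the alternative route, had 159, 184 and 225 CPM in AAI, against 1.88, 1.73 and 1.80 CPM in DMSO (log2 change 6.07, SE 0.28, adjusted p = 1.2e-10). C5ar1, the receptor of the C5a fragment, had 40.6, 70.1 and 60.8 CPM in AAI, against 1.21, 0.711 and 0.793 CPM in DMSO (log2 change 4.91, adjusted p = 1.7e-10). The 1 member that fell was Cfb, the protease of the alternative route, with 540.4, 395 and 375 CPM in AAI, against 627, 622 and 617 CPM in DMSO (log2 change -0.53, SE 0.17, adjusted p = 0.0099); with quantile normalization it was not called (log2 change -0.20, adjusted p = 0.35), nor was it without AAI replicate 3 (log2 change -0.43, adjusted p = 0.0504).

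**Figure D3:**
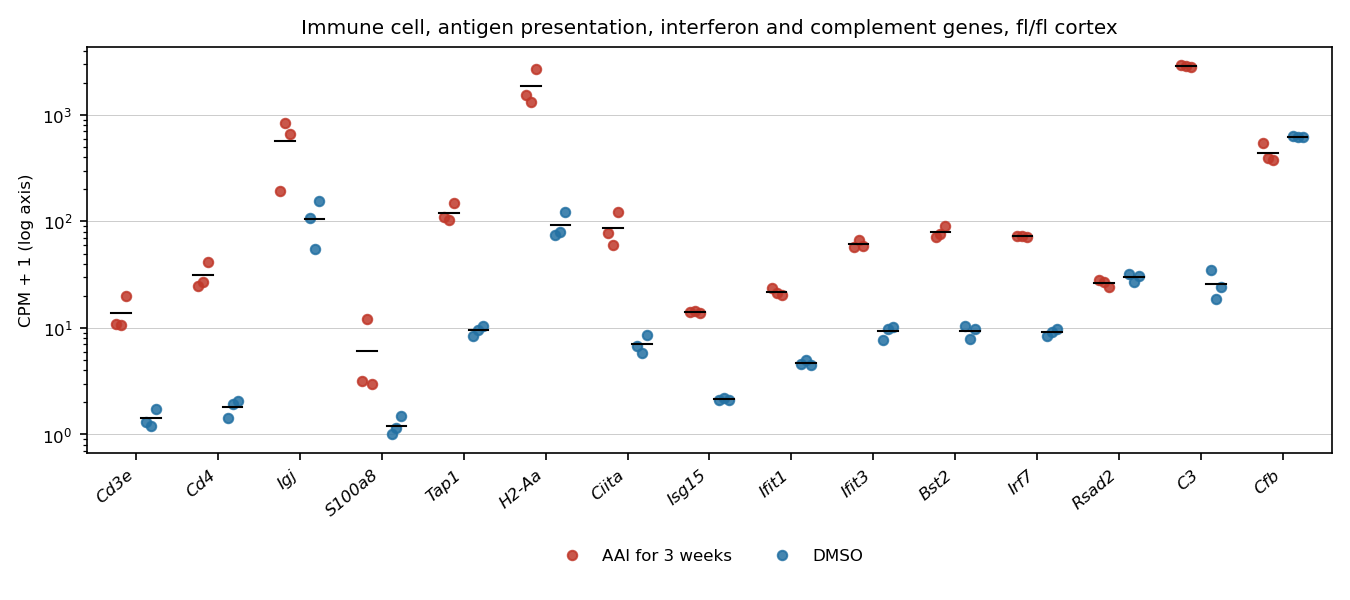
CPM + 1 (log axis) of 15 immune genes in each of the 3 AAI libraries (red, left of each pair) and the 3 DMSO libraries (blue, right) of fl/fl cortex, with the mean of each group as a bar. C3, H2-Aa and Cd4 are far higher in AAI, Rsad2 overlaps between the groups, and Cfb is lower in AAI.

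Genes of the citric acid cycle fell, and glycolysis genes moved in both directions. All 22 genes of the citric acid cycle list were lower (22 on median-of-ratios scaling and 20 after quantile normalization), with log2 changes between -1.40 and -0.21. The list also holds genes of pyruvate dehydrogenase and of cytosolic malate dehydrogenase, which are not steps of the cycle itself. Ogdh, a subunit of the oxoglutarate dehydrogenase complex, had 669, 645 and 555 CPM in AAI, against 1144, 1169 and 1209 CPM in DMSO (log2 change -0.92, SE 0.11, adjusted p = 1.1e-06). Idh2, the NADP-dependent isocitrate dehydrogenase, had 271, 284 and 248 CPM in AAI, against 588, 602 and 560.3 CPM in DMSO (log2 change -1.12, SE 0.15, adjusted p = 4.4e-06). In the glycolysis list 14 of 21 tested members were higher and 3 lower (10 higher and 5 lower with median-of-ratios scaling), against 58% and 36.6% of all genes higher on those scales. Hk2, the hexokinase of growing and hypoxic cells, had 30.2, 41.1 and 36.03 CPM in AAI, against 0.424, 1.12 and 1.59 CPM in DMSO (log2 change 4.20, SE 0.31, adjusted p = 7.8e-09). Pkm, the pyruvate kinase of most tissues other than liver, had 326, 395 and 409.7 CPM in AAI, against 123, 114 and 134 CPM in DMSO (log2 change 1.60, SE 0.16, adjusted p = 1.8e-07). Slc16a3, which exports lactate, had 17.99, 19.8 and 26.6 CPM in AAI, against 0.484, 0.406 and 1.53 CPM in DMSO (log2 change 3.67, adjusted p = 8.9e-09). Other steps differed. Pfkm, the muscle form of phosphofructokinase, had 45.8, 43.4 and 41.9 CPM in AAI, against 68.8, 63.7 and 65.2 CPM in DMSO (log2 change -0.58, adjusted p = 7.7e-05). Ldha, which makes lactate, had 420.4, 386 and 442 CPM in AAI, against 458, 463 and 452 CPM in DMSO (adjusted p = 0.21; lower with median-of-ratios scaling, log2 change -0.61). Eno1 was listed at 0 in all 6 libraries, so it could not be read here.

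Peroxisomal genes fell with few exceptions. In the list 0 of 31 tested members were higher and 28 lower (0 higher and 30 lower with median-of-ratios scaling), with a median log2 change of -1.22 (-1.67 relative to the median gene). Cat (catalase), which removes hydrogen peroxide, had 407, 348 and 314 CPM in AAI, against 1578, 1639 and 1707 CPM in DMSO (log2 change -2.21, SE 0.19, adjusted p = 4.7e-08). Amacr, which readies branched fatty acids for oxidation there, had 33.4, 33.8 and 29.01 CPM in AAI, against 443, 456 and 383 CPM in DMSO (log2 change -3.69, SE 0.28, adjusted p = 9.8e-09). Pex11a, a gene of peroxisome division, had 13.6, 9.89 and 10.1 CPM in AAI, against 25.5, 29.7 and 26.3 CPM in DMSO (log2 change -1.22, adjusted p = 4.7e-06). Enzymes and a division factor were thus lower together, by different amounts.

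Breakdown of aromatic amino acids and glycine also fell. In that list 1 of 28 tested members were higher and 23 lower (0 higher and 25 lower with median-of-ratios scaling), with a median log2 change of -1.90 (-2.35 relative to the median gene). Hpd (chromosome 5, 123171807 to 123182727, minus strand, mm10), a dioxygenase of tyrosine breakdown, had 0.56, 0.281 and 0.436 CPM in AAI, against 81.6, 82.7 and 54.3 CPM in DMSO (log2 change -5.67, SE 0.44, adjusted p = 1.1e-08). Hgd, a later enzyme of the same route, had 139, 101 and 80.5 CPM in AAI, against 585, 597 and 544 CPM in DMSO (log2 change -2.45, SE 0.22, adjusted p = 6.6e-08), so the route was not lowered evenly. Kmo and Haao encode enzymes of the tryptophan route that leads to NAD. Kmo had 32.4, 22.7 and 20.2 CPM in AAI, against 209, 203 and 196 CPM in DMSO (log2 change -2.99, adjusted p = 1.4e-09). Haao had 12.6, 12.5 and 12.5 CPM in AAI, against 212, 217 and 208 CPM in DMSO (log2 change -3.98, adjusted p = 1.3e-08). The 1 member that rose was Oat, an aminotransferase of ornithine, with 262, 254 and 229 CPM in AAI, against 171, 169 and 184 CPM in DMSO (log2 change 0.50, adjusted p = 0.00013), a rise not called with median-of-ratios scaling.

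NAD genes moved in both directions. In the NAD list 5 of 20 tested members were higher and 12 lower (5 higher and 15 lower with median-of-ratios scaling). Nampt, the main enzyme of NAD salvage, had 171, 159.9 and 147 CPM in AAI, against 249, 245 and 251 CPM in DMSO (log2 change -0.64, SE 0.16, adjusted p = 0.0017). Qprt, which encodes an enzyme of the tryptophan route, had 38.1, 30.2 and 29.5 CPM in AAI, against 73.4, 76.6 and 78.2 CPM in DMSO (log2 change -1.21, SE 0.16, adjusted p = 4.5e-06). Cd38, an NAD-consuming enzyme of immune cells, had 48.9, 66.9 and 44.8 CPM in AAI, against 8.96, 7.98 and 8.77 CPM in DMSO (log2 change 2.49, SE 0.19, adjusted p = 1.1e-08). Nnmt, which methylates nicotinamide, had 7.76, 10.8 and 10.1 CPM in AAI, against 1.15, 0.457 and 0.317 CPM in DMSO (log2 change 2.70, SE 0.32, adjusted p = 1.1e-06). The groups did not overlap for any of the 4.

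Most detoxifying enzymes of the P450 family fell. In the cytochrome P450 list 3 of 26 tested members were higher and 18 lower (3 higher and 19 lower with median-of-ratios scaling), with a median log2 change of -2.07 (-2.52 relative to the median gene). Cyp4b1 had 318, 214 and 129 CPM in AAI, against 5484, 5526 and 4637 CPM in DMSO (log2 change -4.65, SE 0.37, adjusted p = 1.8e-08). Cyp2e1, which oxidizes small solvents, had 657, 225 and 161 CPM in AAI, against 2762, 2814 and 1955 CPM in DMSO (log2 change -3.10, SE 0.49, adjusted p = 2.6e-05). Cyp2a5 had 9.48, 5.77 and 3.27 CPM in AAI, against 263, 188 and 284 CPM in DMSO (log2 change -5.17, adjusted p = 1.9e-08); its near copy Cyp2a4 may share its reads, so the split between the pair is uncertain. Cyp1b1, a stromal member, was higher, with 194, 209 and 191 CPM in AAI, against 67.99, 43.5 and 18.1 CPM in DMSO (log2 change 2.35, adjusted p = 5.1e-05). DMSO replicate 3 was the lowest of its group for Cyp1b1. Cyp24a1 and Cyp27b1, which break down and make active vitamin D, did not pass (adjusted p = 0.16 and 0.69).

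In the conjugation list 6 of 36 tested members were higher and 21 lower (3 higher and 25 lower with median-of-ratios scaling). Inmt, a methyltransferase of indoleamines, had 11.9, 13.7 and 20.9 CPM in AAI, against 1488, 1625 and 1142 CPM in DMSO (log2 change -6.45, SE 0.37, adjusted p = 5.9e-10). Nat8, which acetylates cysteine conjugates, had 25.8, 23.96 and 24.8 CPM in AAI, against 266, 326 and 262 CPM in DMSO (log2 change -3.46, SE 0.15, adjusted p = 6.1e-11). Ephx1, the microsomal epoxide hydrolase, went the other way, with 299, 264 and 337 CPM in AAI, against 47.2, 47.7 and 42.1 CPM in DMSO (log2 change 2.68, SE 0.14, adjusted p = 1.9e-10). No AAI library overlapped a DMSO library for these 3 genes.

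Targets of NRF2, the factor that answers oxidants and electrophiles, did not move as a unit. In the list 14 of 24 tested members were higher and 8 lower (12 higher and 9 lower with median-of-ratios scaling), against 58% and 36.6% of all genes higher on these scales. Nfe2l2, which encodes NRF2 itself, had 243, 249 and 258 CPM in AAI, against 110.5, 102 and 109 CPM in DMSO (log2 change 1.22, SE 0.084, adjusted p = 3.9e-09). Akr1b8, an aldose reductase family gene, had 62.4, 52.8 and 59.8 CPM in AAI, against 2.60, 2.59 and 1.96 CPM in DMSO (log2 change 4.13, SE 0.18, adjusted p = 6.2e-11). Hmox1, which breaks down heme, had 146, 135 and 138 CPM in AAI, against 51.04, 44.3 and 49.6 CPM in DMSO (log2 change 1.52, adjusted p = 2.4e-05). Nqo1, a quinone reductase that can also activate AAI by nitroreduction, had 22.1, 24.7 and 19.8 CPM in AAI, against 63.4, 60.9 and 73.5 CPM in DMSO (log2 change -1.53, SE 0.18, adjusted p = 1.2e-06). Gclc, the catalytic subunit of glutathione synthesis, had 183, 167 and 143 CPM in AAI, against 412, 268 and 319.9 CPM in DMSO (log2 change -1.001, adjusted p = 0.0003). Akr1b8 and Hmox1 thus rose with the factor gene, and Nqo1 and Gclc fell, with no overlap between groups for any of the 5.

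Cholesterol genes moved in both directions. In this list 11 of 23 tested members were higher and 9 lower (6 higher and 10 lower with median-of-ratios scaling), and its median changed sign with the scaling. Hmgcs1, an early enzyme of synthesis, had 201, 232 and 160.2 CPM in AAI, against 715, 742 and 672 CPM in DMSO (log2 change -1.85, SE 0.17, adjusted p = 7.6e-08). Acat2, the thiolase of its first step in the cytosol, had 31.9, 30.9 and 25.2 CPM in AAI, against 59.9, 58.5 and 54.7 CPM in DMSO (log2 change -0.96, adjusted p = 3.4e-06). Sqle, which encodes squalene epoxidase, had 116, 128 and 112 CPM in AAI, against 93, 88.96 and 102 CPM in DMSO (log2 change 0.32, adjusted p = 0.0097). With median-of-ratios scaling its change had the other sign and was not called (log2 change -0.14, adjusted p = 0.21).

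Protein-making genes parted between the cytosol and mitochondria. In the cytosolic ribosomal protein list, 64 of 80 members passed the filter, and 60 of 64 tested members were higher and 0 lower (49 higher and 1 lower with median-of-ratios scaling), with a median log2 change of 0.96 (0.52 relative to the median gene). Rplp0, a protein of the ribosomal stalk, had 446, 466 and 592 CPM in AAI, against 225, 224 and 232 CPM in DMSO (log2 change 1.13, SE 0.17, adjusted p = 1.7e-05). In the mitochondrial list 6 of 77 tested members were higher and 30 lower (2 higher and 70 lower with median-of-ratios scaling), with a median log2 change of -0.13 (-0.57 relative to the median gene). Mrpl12 had 73.7, 90.4 and 101 CPM in AAI, against 164, 157 and 165 CPM in DMSO (log2 change -0.88, SE 0.12, adjusted p = 8.6e-06). Among genes of ribosome assembly 24 of 28 tested members were higher and 1 lower (13 higher and 4 lower with median-of-ratios scaling), and Npm1, which encodes nucleophosmin of the nucleolus, had 137, 106 and 96.1 CPM in AAI, against 49.6, 54.7 and 47.98 CPM in DMSO (log2 change 1.13, adjusted p = 5.8e-07). The proteasome gave no direction that held, since 20 of 31 tested members were higher and 0 lower on CPM and 2 higher and 18 lower with median-of-ratios scaling.

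**Figure D4:**
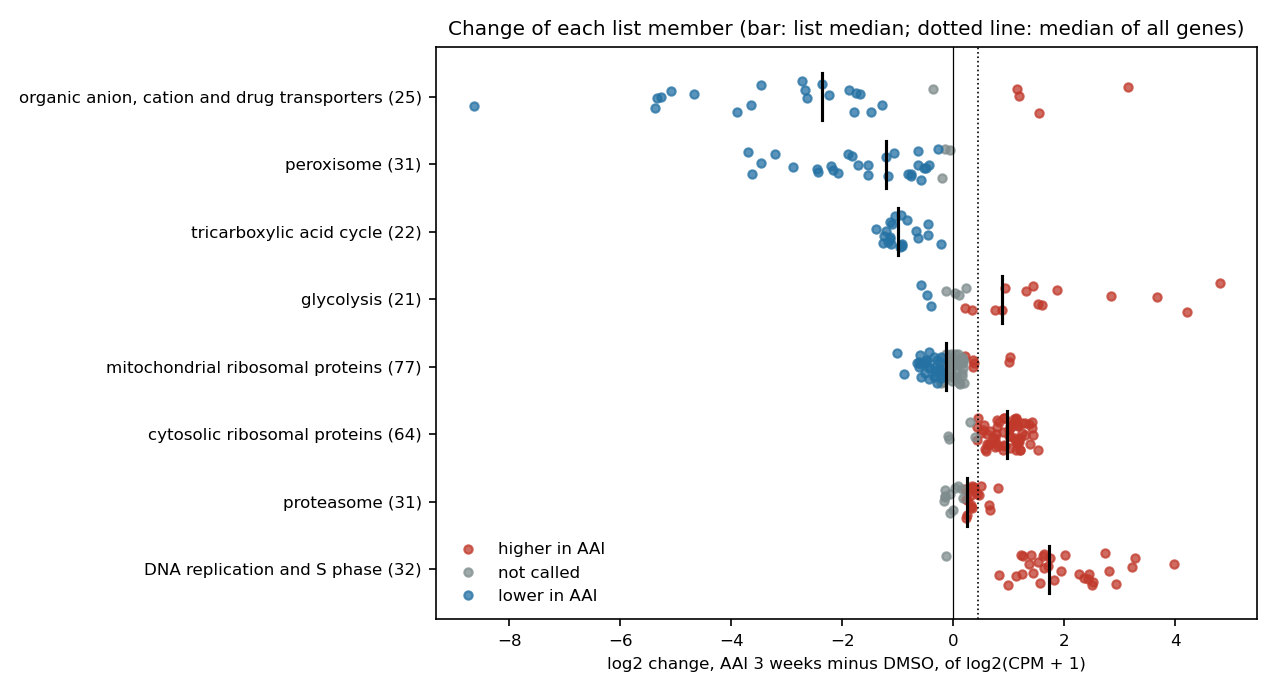
Log2 change (AAI for 3 weeks minus DMSO, of log2(CPM + 1)) of each tested member of 8 gene lists in fl/fl cortex, coloured by its call, with the list median as a bar and the median of all genes, 0.447, as a dotted line. Genes of the citric acid cycle list all lie below 0. Cytosolic ribosomal proteins mostly lie above the dotted line and mitochondrial ribosomal proteins mostly below it, and the proteasome list lies between 0 and that line at its median.

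The unfolded protein response was uneven. In this list 16 of 30 tested members were higher and 1 lower (10 higher and 5 lower with median-of-ratios scaling). Atf3, which stress and the ATF4 branch induce, had 25.9, 39.1 and 50.95 CPM in AAI, against 0.727, 0.813 and 1.37 CPM in DMSO (log2 change 4.29, SE 0.28, adjusted p = 2.2e-09). Asns, the asparagine synthetase that ATF4 induces, had 19.7, 22.4 and 19.02 CPM in AAI, against 4.48, 4.17 and 3.65 CPM in DMSO (log2 change 2.07, SE 0.14, adjusted p = 2.9e-09). Hspa5, the chaperone BiP, had 848, 694 and 652 CPM in AAI, against 443, 490.0 and 623 CPM in DMSO (adjusted p = 0.2), and with quantile normalization it was higher (log2 change 0.83, adjusted p = 0.027). Herpud1, a part of the degradation machinery of the endoplasmic reticulum, had 347, 212 and 249.8 CPM in AAI, against 495, 494 and 447 CPM in DMSO (log2 change -0.86, adjusted p = 6.7e-05). Of the 4 genes, only those of the ATF4 branch were higher on all 3 scalings.

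DNA replication and repair genes rose. In the replication list 31 of 32 tested members were higher and 0 lower (31 higher and 1 lower with median-of-ratios scaling), and the summed level of its members was 758 to 801 CPM in the AAI libraries, against 187 to 203 CPM in the DMSO libraries. Mcm2, a subunit of the replicative helicase, had 52.5, 52.5 and 51.1 CPM in AAI, against 16.1, 14.1 and 15.3 CPM in DMSO (log2 change 1.71, SE 0.11, adjusted p = 1.3e-09). Rrm1, a subunit of the enzyme that makes deoxynucleotides, had 75.8, 70.1 and 68.1 CPM in AAI, against 13.9, 16.2 and 14.3 CPM in DMSO (log2 change 2.20, SE 0.11, adjusted p = 2.1e-10). In the repair list 34 of 39 tested members were higher and 1 lower (26 higher and 5 lower with median-of-ratios scaling). Brca1, of recombination repair, had 14.6, 11.7 and 11.5 CPM in AAI, against 0.969, 0.711 and 1.11 CPM in DMSO (log2 change 2.82, SE 0.24, adjusted p = 3.3e-08). Ercc1, of the nuclease that cuts out bulky adducts, had 24.7, 22.1 and 27.2 CPM in AAI, against 7.93, 7.57 and 7.66 CPM in DMSO (log2 change 1.55, SE 0.13, adjusted p = 2.8e-08). Xpc, which finds such adducts, had 57.9, 52.9 and 46.2 CPM in AAI, against 63.03, 62.7 and 55.8 CPM in DMSO (adjusted p = 0.081; lower with median-of-ratios scaling, log2 change -0.67, and lower without AAI replicate 1, log2 change -0.28, adjusted p = 0.034). Of 38 replication-dependent histone genes, 4 passed the filter, 2 of them higher and 1 lower. In the list of pentose phosphate and nucleotide synthesis 20 of 27 tested members were higher and 3 lower (14 higher and 6 lower with median-of-ratios scaling). Folate genes parted: Mthfd2, the mitochondrial enzyme of proliferating cells, had 18.9, 17.6 and 20.9 CPM in AAI, against 1.63, 1.88 and 2.96 CPM in DMSO (log2 change 2.69, adjusted p = 5.6e-10). Shmt2 had 80.4, 73.9 and 75.5 CPM in AAI, against 339, 341 and 303 CPM in DMSO (log2 change -2.08, adjusted p = 1.2e-09).

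Most genes of the cell death list rose. In the cell death list 22 of 28 tested members were higher and 5 lower (21 higher and 6 lower with median-of-ratios scaling). Ripk3 and Mlkl encode the kinase and the pore protein of necroptosis. Ripk3 had 19.6, 19.98 and 23.3 CPM in AAI, against 0.363, 0.559 and 0.634 CPM in DMSO (log2 change 3.85, adjusted p = 1.5e-09). Mlkl had 13.2, 11.3 and 11.95 CPM in AAI, against 0.727, 1.02 and 1.69 CPM in DMSO (log2 change 2.64, adjusted p = 3.4e-08). Gsdmd, the pore protein of pyroptosis, had 33.6, 35.03 and 46.7 CPM in AAI, against 3.15, 1.93 and 3.33 CPM in DMSO (log2 change 3.38, SE 0.30, adjusted p = 5.2e-08). Gpx4, which protects against ferroptosis, had 46.5, 55.1 and 65.5 CPM in AAI, against 85.1, 83.1 and 91.8 CPM in DMSO (log2 change -0.64, SE 0.12, adjusted p = 0.00017). Acsl4, which makes the lipids that ferroptosis oxidizes, had 141, 123 and 97.8 CPM in AAI, against 56.6, 51.5 and 51.5 CPM in DMSO (log2 change 1.15, adjusted p = 5.4e-06). Pore and protective genes did not all move alike. Dfna5, which encodes the pore protein GSDME, had 6.90, 7.36 and 6.46 CPM in AAI, against 12.2, 11.6 and 8.77 CPM in DMSO (log2 change -0.57, adjusted p = 0.0066). Slc7a11, a cystine carrier that protects against ferroptosis, named here after its values were seen, had 13.1, 16.9 and 22.5 CPM in AAI, against 0.121, 0 and 0.0528 CPM in DMSO (log2 change 4.10, adjusted p = 6.8e-08). Several genes of the list are also high in leukocytes.

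Early response genes and YAP targets rose, and so did many genes of the Wnt and Notch list. In the AP-1 and early growth response list 20 of 22 tested members were higher and 0 lower (20 higher and 0 lower with median-of-ratios scaling). Egr2 had 46.1, 53.03 and 57.1 CPM in AAI, against 1.09, 0.356 and 0.793 CPM in DMSO (log2 change 4.94, SE 0.27, adjusted p = 4.2e-10). Fos had 48.4, 22.6 and 30.2 CPM in AAI, against 8.17, 1.57 and 4.12 CPM in DMSO (log2 change 2.74, SE 0.58, adjusted p = 0.00047). Of the targets of YAP, the effector of the Hippo pathway, 13 of 16 tested members were higher and 0 lower (10 higher and 2 lower with median-of-ratios scaling), and Ankrd1 had 68.7, 54.3 and 56.5 CPM in AAI, against 1.45, 0.864 and 1.43 CPM in DMSO (log2 change 4.76, SE 0.23, adjusted p = 1.6e-10). In the list of EGF receptor ligands and receptors 8 of 13 tested members were higher and 2 lower (7 higher and 3 lower with median-of-ratios scaling), and of all genes 58% and 36.6% were higher on these scales. Among the ligands, Nrg1 had 28.4, 35.1 and 33.4 CPM in AAI, against 4.24, 8.54 and 7.08 CPM in DMSO (log2 change 2.17, adjusted p = 1.7e-06). Hbegf had 51.6, 46.9 and 47.8 CPM in AAI, against 20.8, 18.1 and 21.1 CPM in DMSO (log2 change 1.25, adjusted p = 7e-06). Both rose, whereas Egf fell (above). The receptor gene Erbb3 had 70.2, 49.6 and 41.2 CPM in AAI, against 100.1, 121 and 124 CPM in DMSO (log2 change -1.12, adjusted p = 8.8e-05). In the Wnt and Notch list 21 of 28 tested members were higher and 0 lower (16 higher and 2 lower with median-of-ratios scaling). Wnt4, a ligand of nephron formation, had 12.9, 18.6 and 22.9 CPM in AAI, against 1.57, 1.02 and 0.74 CPM in DMSO (log2 change 3.17, SE 0.24, adjusted p = 9.7e-09). Axin2, a general Wnt target, had 8.92, 10.6 and 13.5 CPM in AAI, against 1.51, 1.07 and 1.22 CPM in DMSO (log2 change 2.39, SE 0.21, adjusted p = 4e-08).

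Clock genes moved in both directions. In this list 6 of 19 tested members were higher and 10 lower (4 higher and 11 lower with median-of-ratios scaling). Arntl (BMAL1), the activator of the clock, had 14.3, 18.7 and 12.2 CPM in AAI, against 3.63, 2.79 and 2.43 CPM in DMSO (log2 change 2.01, SE 0.34, adjusted p = 5.3e-05). Nfil3, a repressor, had 15, 14.3 and 18.9 CPM in AAI, against 3.94, 2.34 and 1.74 CPM in DMSO (log2 change 2.25, SE 0.37, adjusted p = 4.3e-05). The output factors Hlf, Tef and Dbp bind the same sites as NFIL3, and all 3 fell. Hlf had 44.04, 38.1 and 31.5 CPM in AAI, against 208, 208 and 222 CPM in DMSO (log2 change -2.47, adjusted p = 8e-10). Tef had 158, 141 and 153 CPM in AAI, against 441, 444 and 433 CPM in DMSO (log2 change -1.54, adjusted p = 5.4e-08). Dbp had 32.3, 28.7 and 44.2 CPM in AAI, against 89.6, 79.9 and 86.5 CPM in DMSO (log2 change -1.28, adjusted p = 0.0031). The labels do not give the time of day at which kidneys were taken, so time of day and treatment cannot be told apart. Per1 had 67.9, 64.7 and 121 CPM in AAI, against 54.8, 62.03 and 57.1 CPM in DMSO (adjusted p = 0.16).

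Genes of phosphate and calcium handling moved in both directions. In the mineral list 6 of 18 tested members were higher and 7 lower (4 higher and 9 lower with median-of-ratios scaling). Kl, which encodes Klotho, the co-receptor of the phosphate hormone FGF23, had 349, 334 and 284 CPM in AAI, against 1264, 1159.7 and 1205 CPM in DMSO (log2 change -1.91, SE 0.16, adjusted p = 2.6e-08). Slc34a1 and Slc34a3 encode apical phosphate transporters of the proximal tubule. Slc34a1 had 2277, 1435 and 1376 CPM in AAI, against 9043, 8729 and 7839 CPM in DMSO (log2 change -2.37, adjusted p = 2.5e-07). Slc34a3 had 19.04, 24.01 and 21.4 CPM in AAI, against 86.04, 74.3 and 74.4 CPM in DMSO (log2 change -1.82, adjusted p = 1.5e-05). Trpv6, a channel for calcium uptake, had 7.84, 9.57 and 9.16 CPM in AAI, against 1.94, 2.08 and 1.53 CPM in DMSO (log2 change 1.79, SE 0.17, adjusted p = 1e-07). In the renin-angiotensin list 5 of 14 tested members were higher and 6 lower (2 higher and 9 lower with median-of-ratios scaling). Ace, which encodes the enzyme that makes angiotensin II, had 39.6, 49.6 and 32.8 CPM in AAI, against 457, 550.1 and 525 CPM in DMSO (log2 change -3.63, adjusted p = 4.4e-08). Agt, the precursor, had 126, 133 and 98.8 CPM in AAI, against 54.9, 61.1 and 84.8 CPM in DMSO (log2 change 0.84, adjusted p = 0.014), a rise not called with median-of-ratios scaling or without DMSO replicate 1 (log2 change 0.71, adjusted p = 0.060).

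Iron genes moved in both directions. Of the list, 8 of 20 tested members were higher and 7 lower (7 higher and 9 lower with median-of-ratios scaling). Tfrc, the transferrin receptor, had 26.8, 41.8 and 23.4 CPM in AAI, against 122, 111 and 156 CPM in DMSO (log2 change -2.07, SE 0.27, adjusted p = 4.1e-06). Cp, the plasma ferroxidase ceruloplasmin, had 504, 909 and 585 CPM in AAI, against 72.6, 59.04 and 67.96 CPM in DMSO (log2 change 3.26, SE 0.21, adjusted p = 1.5e-09). Car9, an enzyme that hypoxia induces, had 2.99, 3.56 and 3.71 CPM in AAI, against 22.8, 29.5 and 25.9 CPM in DMSO (log2 change -2.61, SE 0.29, adjusted p = 7.1e-07), and of the hypoxia and VEGF list 9 of 19 tested members were higher and 5 lower (4 higher and 9 lower with median-of-ratios scaling).

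Many junction and filament genes of the epithelium rose, and a pair of claudins of the proximal tubule fell. In the claudin and junction list 14 of 20 tested members were higher and 3 lower (10 higher and 4 lower with median-of-ratios scaling). The shares of all genes higher were 58% and 36.6% on these scales, and the list median lay 0.29 above the median gene. Cldn2, the sodium- and water-passing claudin of the proximal tubule, had 474, 409 and 397 CPM in AAI, against 818, 813 and 925 CPM in DMSO (log2 change -0.997, SE 0.13, adjusted p = 5.3e-06). Cldn10 had 48.2, 55.7 and 35.8 CPM in AAI, against 172, 175 and 191 CPM in DMSO (log2 change -1.94, adjusted p = 7.8e-07). Cldn1 and Cldn4 encode claudins of tighter epithelia. Cldn1 had 246, 193 and 202 CPM in AAI, against 22.9, 29.8 and 25.3 CPM in DMSO (log2 change 2.99, adjusted p = 2.1e-10). Cldn4 had 173, 180.4 and 211 CPM in AAI, against 17.7, 17.8 and 18.4 CPM in DMSO (log2 change 3.31, adjusted p = 7.8e-09). In the filament list 11 of 14 tested members were higher and 0 lower (9 higher and 0 lower with median-of-ratios scaling), and Krt20, a keratin of urothelium and gut that injured tubules switch on, had 100.1, 62.3 and 78 CPM in AAI, against 0.121, 0.152 and 0.211 CPM in DMSO (log2 change 6.10, SE 0.29, adjusted p = 1.3e-10).

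Some of the fallen genes differed between the end of treatment and the 6-week libraries, and others did not. Across all genes, 1932 of 14604 (13.2%) differed between 6 and 3 weeks, 1046 higher and 886 lower at 6 weeks. This test shares the 3-week libraries with the comparison above, so the values are set side by side. Egf had 441, 918 and 235 CPM at 6 weeks, against 41.9, 183 and 56.4 CPM at 3 weeks (log2 change 2.58, adjusted p = 0.0033). Slc12a1 had 1689.7, 972 and 598 CPM at 6 weeks, against 141, 458 and 207 CPM at 3 weeks (log2 change 2.06, adjusted p = 0.017). Slc7a13 had 176, 481 and 112 CPM at 6 weeks, against 1.90, 23.1 and 6.98 CPM at 3 weeks (log2 change 4.69, adjusted p = 0.0023). Every 6-week library was above every 3-week library for these 3 genes. Slc22a7 (OAT2), with 137, 125 and 174 CPM in the DMSO libraries, had 57.4, 271 and 25.8 CPM at 6 weeks, against 1.16, 4.27 and 2.70 CPM at 3 weeks (log2 change 4.43, adjusted p = 0.0086). Slc22a6, in contrast, had 30.5, 155 and 48.5 CPM at 6 weeks (adjusted p = 0.57) and Cyp2a5 had 3.79, 5.54 and 8.82 CPM (adjusted p = 0.99). The counts rest on single libraries: 367 genes were higher and 275 lower without AAI 3-week replicate 3, 401 higher and 242 lower without 6-week replicate 2, and 513 lower without AAI 3-week replicate 2.

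Lists also differed at 6 weeks. Of the replication genes, 23 of 32 were lower at 6 weeks than at 3 weeks, and of the thick ascending limb genes 9 of 17 were higher. H2-Aa had 1538, 956 and 1463 CPM at 6 weeks, against 1548, 1312 and 2686 CPM at 3 weeks (log2 change -0.45, adjusted p = 0.46). Mcm2 had 36.6, 28.2 and 38.9 CPM at 6 weeks, against 52.5, 52.5 and 51.1 CPM at 3 weeks (log2 change -0.59, adjusted p = 0.0034). Irf7 had 56.8, 26.3 and 63.9 CPM at 6 weeks, against 72.6, 72.8 and 70.6 CPM at 3 weeks (log2 change -0.64, adjusted p = 0.15), with 1 library of the 6-week group well below the others.

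**Figure D5:**
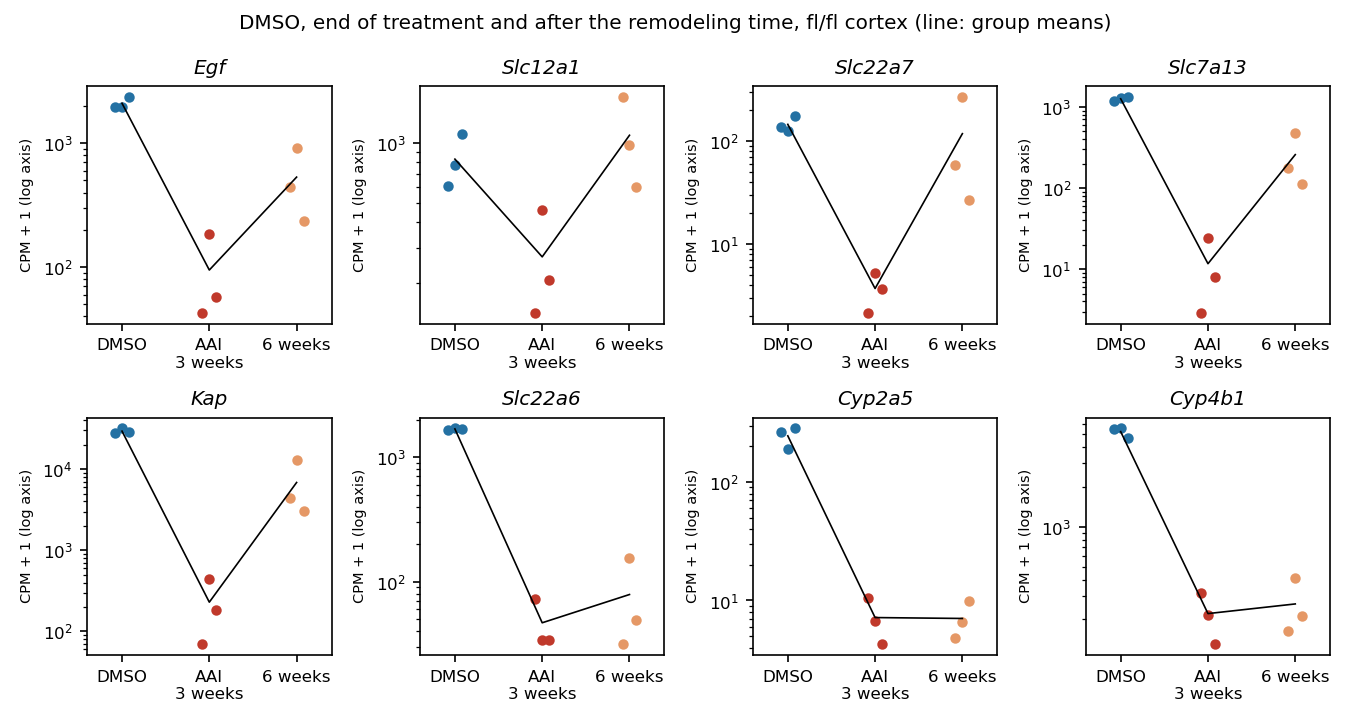
CPM + 1 (log axis) of 8 genes in the DMSO libraries, the libraries at the end of 3 weeks of AAI and the 6-week libraries of fl/fl cortex, 3 each, with the group means joined by a line. Egf, Slc12a1, Slc22a7, Slc7a13 and Kap are higher at 6 weeks than at 3 weeks, and Slc22a6, Cyp2a5 and Cyp4b1 did not pass that test.

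The response to AAI was also compared between fl/fl libraries and those labelled PTKO. The interaction of genotype label and AAI at 3 weeks passed for 41 of 14604 genes (0.281%), of which 17 had the higher change in fl/fl and 24 the lower. Of the genes named here, Nqo1 passed. It averaged 22.2 ± 2.44 CPM in AAI and 65.9 ± 6.69 CPM in DMSO for fl/fl, and 52.8 ± 9.02 CPM in AAI and 55.4 ± 9.70 CPM in DMSO for libraries labelled PTKO (mean ± SD, n = 3 each), and the fl/fl change minus the PTKO change was -1.46 on the log2 scale (adjusted p = 0.042). For Slc22a6 the adjusted p of the interaction was 0.3, for Egf 0.13 and for H2-Aa 0.61, which does not show that the genotypes answered alike. Without AAI replicate 1 of the libraries labelled PTKO 227 genes were higher and 200 lower in the interaction, and without DMSO replicate 3 of the same label 3 were higher and 3 lower, so the number of such genes rests on single libraries.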

How the data were processed

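Total RNA of perfused kidney cortex was sequenced after a stranded TruSeq total RNA preparation, per the labels' protocols. The submitters' processing notes name bcl2fastq 2.19, kallisto and mm10, without an order or a version of kallisto. The authors deposited 1 table of CPM for 24062 gene symbols in 18 libraries, 3 in each of 6 groups. Its values are whole multiples of the value of 1 read in 433116 of 433116 cells (100%, within 0.01 of a whole read), so reads were recovered from it. In 27 rows the symbol had been turned into a date. Some genes known to be abundant, such as Eno1 and Ren1, are listed at 0 in all 6 libraries compared.

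log2(CPM + 1) of the 14604 genes at 1 CPM or more in at least 3 libraries was fitted with limma 3.58.1 (R 4.3.3) as 6 group means over 18 libraries, with a variance trend and Benjamini-Hochberg adjustment at 0.05. edgeR 4.0.16 and DESeq2 1.42.0 on the recovered reads, other scalings, filters and pseudocounts, a replicate block and leaving out each library were alternatives. The procedure was tested on simulated data. The 55 lists (1275 genes) and the members named were chosen with earlier results of these data known. Unless stated, a gene named is 1 of the 15 with the largest log2 change in each direction among called genes whose groups do not overlap and whose higher group averages 5 CPM or more, 1 of the 10 with the largest gain or loss in mean CPM, a defining member of a list, 1 of its 4 called members with the smallest adjusted p, a member called against at least 3 in 4 of the others, or Klf6; not all such genes are printed. Gene positions follow the mouse annotation on mm10, and promoters are from RefSeq. Replicates of a group differed by more than counting noise. Intervals are 95% and cover the spread between libraries.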

Additional observations from a re-analysis of the deposited data

Results flagged for a closer look

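Of the genes named, Nqo1 stood out because its AAI change differed between fl/fl libraries and those labelled PTKO. The fl/fl change minus the PTKO change was -1.46 on the log2 scale (limma, adjusted p = 0.042). All 3 fl/fl AAI libraries were below all 3 fl/fl DMSO libraries, which describes the fl/fl groups alone. The Nqo1 interaction was not examined under the alternatives, and the number of genes that passed rested on single libraries.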

How the results depend on the processing

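The counts of the main comparison (8466 genes higher and 2651 lower by limma on CPM) changed with the scaling and with a minimum change. They were 5349 and 4998 with median-of-ratios scaling, 4612 and 5682 with quantile normalization, 5269 and 5091 by edgeR, 5382 and 5025 by DESeq2, and 3851 and 1053 with an absolute log2 change of at least 1 required. Leaving out a library gave 8015 to 8214 higher and 2387 to 2619 lower. The counts between 6 and 3 weeks (1046 higher, 886 lower) were 312 and 250 in a fit on the compared groups alone, and leaving out a library gave 367 to 979 higher and 242 to 938 lower. The interaction counts (17 higher, 24 lower) were 3 and 4 with no filter, 26 and 38 with a filter at 5 CPM, 47 and 41 with quantile normalization, 227 and 354 in a fit on the compared groups alone, and 5 and 7 with no variance trend. The higher count was 27 with median-of-ratios scaling. Leaving out a library gave 2 to 227 higher and 3 to 200 lower. The cause of these differences was not tested.

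Replicate numbers did not pair the libraries, since the deviations of same-numbered AAI and DMSO libraries correlated at 0.0366, -0.0499 and 0.0397. With a replicate block, 8403 genes were higher and 2617 lower in the main comparison, and 53 genes were lower in the interaction.

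In the main comparison, none of the genes named changed direction with a call under any alternative run, and 9 changed call when 1 library was left out. Median-of-ratios scaling ended the call of 4 besides Sqle and gave one to 3, and quantile normalization ended 7, Sqle among them, and gave 3. The log2 change of Sqle (0.32) turned to -0.14 with median-of-ratios scaling, -0.16 by edgeR and -0.14 by DESeq2, none of them called, and the cause was not tested. Depth limits genes near 1 CPM, where a library holds few reads and log2(CPM + 1) understates the change.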
